A study of Mus musculus with 11 samples.

Results

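The genes described here make long-chain fatty acids and then lengthen or desaturate them. The set holds 10 listed mouse genes, Acly, Acaca, Acacb, Fasn, Scd1, Scd2, Elovl1, Elovl6, Fads1 and Fads2, found in the deposited count table by the Ensembl identifier that belongs to each symbol. All 10 were found among 15113 genes in the table, and 9 of them were among the 13025 genes with enough counts to be tested. Acacb was not tested because its counts were too low.

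Cytosolic citrate is split by ATP citrate lyase into acetyl-CoA, which acetyl-CoA carboxylase turns into malonyl-CoA. Fatty acid synthase joins these units into palmitate, elongases of the endoplasmic reticulum lengthen the chain, and desaturases place double bonds in it. The pathway is controlled in large part by SREBP transcription factors, and in muscle malonyl-CoA also restrains the entry of fatty acids into mitochondria.

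RNA was measured in C2C12, a mouse skeletal myoblast line, in cells labelled as early-stage myotubes at passages 2 to 5. The shDRP1 group (n = 5) carried a short hairpin RNA directed at Drp1, a GTPase of the dynamin family needed for mitochondrial fission, and the shRandom group (n = 6) carried a random hairpin. The number of hairpin sequences or clones is not given in the sources used here. Nor do the labels say that each library is its own culture, so the p-values reflect spread among libraries that could be technical replicates. Libraries held 12277622 to 23082617 counts of tags from near the 3' end of transcripts.

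Dnm1l, which encodes Drp1, was at 18.7 ± 2.58 CPM (SD, n = 5; CPM are counts scaled to a common library size) in shDRP1 libraries and at 78.6 ± 8.63 CPM (SD, n = 6) in shRandom libraries. The myotube markers were low in shDRP1 libraries: all 10 were lower (edgeR, adjusted p under 0.05), as were 33.3% of all tested genes. As log2 fold changes, Ckm was at -6.64, Acta1 at -6.93, Tnnc1 at -7.06, Mymk at -7.71 and Myod1 at -5.76. The summed level of the 10 markers ran from 188.4 to 252.0 CPM in shDRP1 and from 11398.7 to 12827 CPM in shRandom libraries. The groups therefore differed in the markers of their labelled cell type as well as in Dnm1l, and the part of this in the results below was not tested. In such bulk RNA, fewer cells of a type and less RNA per cell cannot be told apart. Of 13 adipocyte markers 5 were analysed, and their summed level ran from 60.8 to 97.6 CPM in shDRP1 and from 62.3 to 103.1 CPM in shRandom libraries, most of it Car3, which muscle also expresses. Of the 3 tested, Plin4 was higher (log2 fold change 2.48), Lpl lower (-0.66) and Car3 not past the threshold (-0.27). Fabp4, a fatty acid binding protein, and Adrb3 were not tested because their counts were too low. Fabp4 was at 0.762 ± 0.179 CPM (SD, n = 5) in shDRP1 and 0.0528 ± 0.0294 CPM (SD, n = 6) in shRandom libraries. These values rest on 66 and 6 raw counts. Adrb3 had 48 raw counts in the shDRP1 and 16 in the shRandom libraries together. Neither the other 8 adipocyte markers nor the 7 hepatocyte markers were analysed here.

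Most members were higher in shDRP1 libraries, by 1.29-fold to 3.24-fold. Elovl6 and Acly rose most, followed by the desaturases Fads2 and Fads1, and then Elovl1, Fasn and Scd2. Of the 9 members tested, 7 passed an adjusted p of 0.05 as higher and none as lower (edgeR quasi-likelihood test, Benjamini-Hochberg adjustment over all genes). At an unadjusted p under 0.05 (edgeR), 8 were higher and 0 lower, but the share of all genes at that threshold was not computed. At the adjusted threshold DESeq2 and limma-voom also called 7 higher and 0 lower. Over all tested genes 33.9% were called higher and 33.3% lower, so the 77.8% of tested members called higher lay above that background. With library totals alone 5207 genes were higher and 3751 lower, and 8 members were higher. The median log2 fold change was 0.49 over the tested members and 0.03 over all tested genes. In 5 members every shDRP1 library lay above every shRandom library, which held for 23.5% of all tested genes, and in no member did every shDRP1 library lie below, which held for 25.4%.

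**Figure D1:**
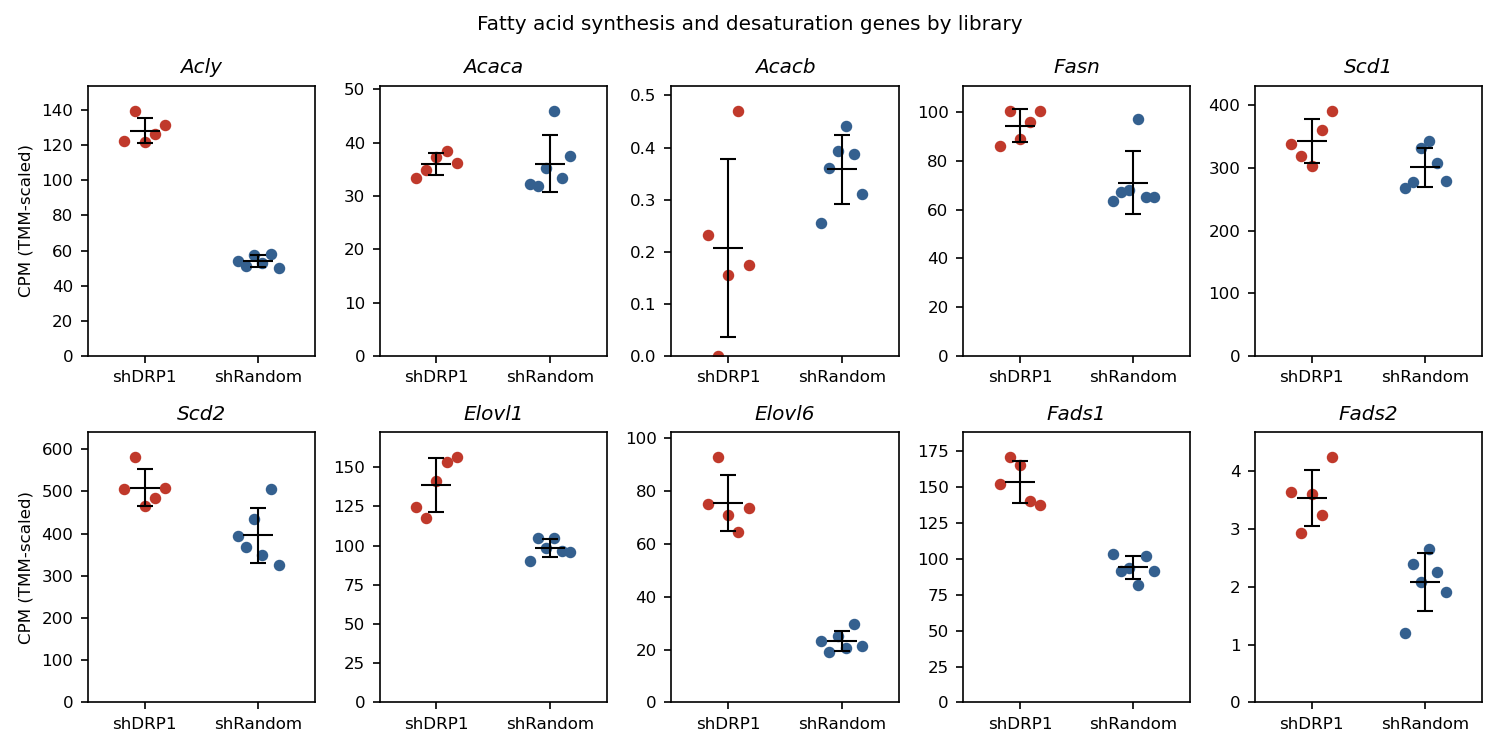
Level of each member in CPM (vertical axes, each gene on its own scale starting at 0), with 1 point per library, shDRP1 (n = 5) left of shRandom (n = 6), and the mean with SD in black. Acly and Elovl6 have the widest gaps between groups, Acaca has the same mean of 36.0 CPM in both, and shRandom replicate 4 stands high for Fasn at 97.1 CPM.

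Acly, the enzyme that makes cytosolic acetyl-CoA from citrate, was higher in every shDRP1 library. It (ENSMUSG00000020917) is annotated on the minus strand of chromosome 11 from 100476353 to 100528000 (GRCm38, GENCODE M21). Its level was 122.6, 139.7, 121.8, 126.2 and 131.3 CPM in shDRP1 replicates 1 to 5, and in shRandom libraries the lowest, median and highest were 50.2, 53.6 and 58.1 CPM. The lowest shDRP1 library thus stood well above the highest shRandom library, and both groups were tight, with coefficients of variation of 5.78% in shDRP1 and 5.84% in shRandom libraries. On the log2 scale the rise was 1.25 (SE 0.06, adjusted p = 1.4e-10, edgeR), and 1058 of all tested genes had a fold change at least as high.

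Acaca, the cytosolic acetyl-CoA carboxylase that commits acetyl-CoA to synthesis, showed no difference beyond the spread between libraries. It had 33.3, 34.8, 37.2, 38.4 and 36.1 CPM in shDRP1 replicates 1 to 5, against a lowest, median and highest of 31.8, 34.3 and 46.0 CPM in shRandom libraries. The shDRP1 values fell inside the shRandom range, whose top was replicate 4. The 95% interval of the fold was 0.871 to 1.15 (adjusted p = 0.98, edgeR), so a change as large as that of Acly lies outside it. Acaca (ENSMUSG00000020532) is on the plus strand of chromosome 11 from 84129672 to 84401651.

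Acacb, the carboxylase of the outer mitochondrial membrane, whose malonyl-CoA restrains fatty acid import, was near the limit of detection. Its raw counts were 4, 0, 3, 10 and 3 in shDRP1 replicates 1 to 5, a total of 20, against 39 in the 6 shRandom libraries together. These correspond to 0.206 ± 0.171 CPM (SD, n = 5) in shDRP1 and 0.358 ± 0.0666 CPM (SD, n = 6) in shRandom libraries, and the groups overlapped. With no low-count filter edgeR gave a log2 fold change of -0.68 with an SE of 0.46 (adjusted p = 0.21), so no difference was detectable at this depth. Acacb (ENSMUSG00000042010) is on the plus strand of chromosome 5 from 114146535 to 114250761. Acaca made up 99.4% ± 0.443 (SD, n = 5) of the counts of both carboxylases in shDRP1 and 99.0% ± 0.161 (SD, n = 6) in shRandom libraries.

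Fasn, the synthase that builds palmitate, rose by a smaller step than Acly. Its level was 85.9, 100.5, 89.1, 95.9 and 100.6 CPM in shDRP1 replicates 1 to 5, and in shRandom libraries the lowest, median and highest were 63.6, 66.1 and 97.1 CPM. The groups overlapped through 1 library, shRandom replicate 4, and the other shRandom libraries reached 68.0 CPM at most. On the log2 scale the rise was 0.41 (SE 0.10, adjusted p = 0.0028, edgeR), and without shRandom replicate 4 it was 0.52 (adjusted p = 4.1e-06). Fasn (ENSMUSG00000025153) is on the minus strand of chromosome 11 from 120805846 to 120824547. Since Acly rose more, the ratio of Fasn to Acly counts was 0.736 ± 0.0274 (SD, n = 5) in shDRP1 and 1.32 ± 0.261 (SD, n = 6) in shRandom libraries. The lowest shRandom ratio, 1.12, was above the highest shDRP1 ratio, 0.766.

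Elovl6, which lengthens palmitate to stearate, was the member that rose most. It had 74.9, 92.8, 71.0, 64.3 and 73.5 CPM in shDRP1 replicates 1 to 5, and a lowest, median and highest of 19.2, 22.4 and 29.5 CPM in shRandom libraries. No shDRP1 library came near the shRandom range. On the log2 scale it rose by 1.70 (SE 0.11, adjusted p = 6.8e-09, edgeR), a fold of 3.24 with a 95% interval of 2.73 to 3.84, and 617 tested genes were at or above it. Elovl6 (ENSMUSG00000041220) is on the plus strand of chromosome 3 from 129532355 to 129638495.

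Elovl1, the elongase that makes saturated and monounsaturated chains of very great length, rose less. Its level was 124.8, 117.5, 141.1, 153.4 and 156.5 CPM in shDRP1 replicates 1 to 5, against a lowest, median and highest of 90.4, 97.4 and 105.0 CPM in shRandom libraries. The groups did not overlap, and the fitted log2 difference was 0.49 (SE 0.08, adjusted p = 5.9e-05, edgeR). Elovl1 (ENSMUSG00000006390) is on the plus strand of chromosome 4 from 118428093 to 118432953, and Cdc20, a mitotic activator on the opposite strand, overlaps the end of Elovl1 where tags are counted. Cdc20 was at 43.7 CPM in shDRP1 and 32.7 CPM in shRandom libraries, and since the strand setting of the counting is not given in the sources used here, reads of this pair cannot be told apart. Elovl6 made up 35.3% ± 5.71 (SD, n = 5) of the counts of both elongases in shDRP1 and 19.1% ± 2.92 (SD, n = 6) in shRandom libraries, with ranges of 29.5% to 44.1% in shDRP1 and 15.5% to 23.4% in shRandom libraries.

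**Figure D2:**
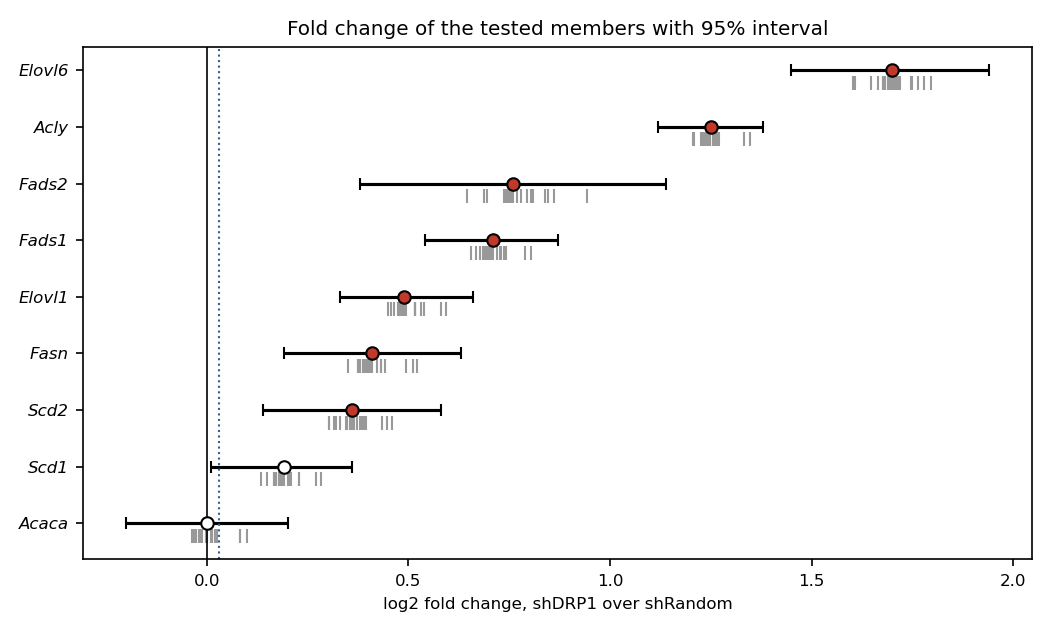
Log2 fold change of shDRP1 over shRandom (horizontal axis) for the 9 tested members, with 95% intervals from edgeR. Filled points passed an adjusted p of 0.05, grey ticks are the values under the other settings and without each library in turn, the solid line marks 0, and the dotted line is the median of all tested genes at 0.03. Elovl6 at 1.70 and Acly at 1.25 lie apart from the other members, and the interval of Acaca spans 0.

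The Δ9 desaturases Scd1 and Scd2, which turn stearate and palmitate into oleate and palmitoleate, were the most abundant members. Scd2 had 505.8, 581.2, 464.2, 485.0 and 507.8 CPM in shDRP1 replicates 1 to 5, and a lowest, median and highest of 325.8, 381.2 and 504.4 CPM in shRandom libraries. Its groups overlapped through shRandom replicate 5, and the fitted log2 difference was 0.36 (SE 0.10, adjusted p = 0.006, edgeR). Scd1 had 338.4, 318.8, 302.9, 360.7 and 391.6 CPM in shDRP1 replicates 1 to 5, and a lowest, median and highest of 267.4, 293.1 and 343.0 CPM in shRandom libraries. The Scd1 groups overlapped widely, and its log2 fold change of 0.19 (SE 0.08) missed the threshold (adjusted p = 0.062, edgeR), with a 95% interval of the fold from 1.01 to 1.28. The call for Scd1 turned on single libraries: it passed without shRandom replicate 4 (adjusted p = 0.024, edgeR) and without shDRP1 replicate 3 (adjusted p = 0.031, edgeR).

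Both desaturases lie on chromosome 19, Scd2 (ENSMUSG00000025203) on the plus strand from 44293674 to 44306864 and Scd1 (ENSMUSG00000037071) on the minus strand from 44394455 to 44407879. They are close paralogs, so the division of reads between them is uncertain where their sequences match. Scd1 made up 40.2% ± 3.18 (SD, n = 5) of their joint counts in shDRP1 and 43.4% ± 4.14 (SD, n = 6) in shRandom libraries. These shares overlapped, with ranges of 35.4% to 43.5% in shDRP1 and 37.8% to 49.6% in shRandom libraries.

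The Δ5 and Δ6 desaturases Fads1 and Fads2, which make polyunsaturated fatty acids from dietary precursors, both rose. Fads1 had 152.0, 171.1, 165.6, 140.7 and 138.0 CPM in shDRP1 replicates 1 to 5, and a lowest, median and highest of 81.6, 92.8 and 103.8 CPM in shRandom libraries. Every shDRP1 library lay above the shRandom range, and the fitted log2 difference was 0.71 (SE 0.08, adjusted p = 1.3e-06, edgeR). Fads2 was far less abundant, with 3.65, 2.94, 3.61, 3.25 and 4.25 CPM in shDRP1 replicates 1 to 5, and a lowest, median and highest of 1.21, 2.17 and 2.65 CPM in shRandom libraries. The groups did not overlap, and the fitted log2 difference was 0.76 (SE 0.18, adjusted p = 0.0017, edgeR), resting on 313 raw counts in shDRP1 and 229 in shRandom libraries. They are neighbours on chromosome 19, with Fads2 (ENSMUSG00000024665) on the minus strand from 10062765 to 10101746 and Fads1 (ENSMUSG00000010663) on the plus strand from 10182888 to 10196877.

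The order of levels differed in part between the groups. Each transcript is counted by tags at its 3' end, so levels in CPM are not divided by transcript length. In shDRP1 libraries the order by mean CPM was Scd2, Scd1, Fads1, Elovl1, Acly, Fasn, Elovl6, Acaca, Fads2 and Acacb. The ranges of Fads1, Elovl1 and Acly overlapped in that group, each with its neighbour, as did those of Fasn and Elovl6. In shRandom libraries the order was Scd2, Scd1, Elovl1, Fads1, Fasn, Acly, Acaca, Elovl6, Fads2 and Acacb, where Scd2 overlapped Scd1, Elovl1 overlapped Fads1 and Fads1 overlapped Fasn. Elovl6 was thus above Acaca in shDRP1 libraries and below it in shRandom libraries, with no overlap of their ranges in either group.

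Together the 10 genes took 0.154% ± 0.0066 (SD, n = 5) of all counts in shDRP1 and 0.104% ± 0.00907 (SD, n = 6) in shRandom libraries. The lowest shDRP1 share was 0.148% and the highest shRandom share 0.117%. Scd1 and Scd2 made up 57.4% ± 1.47 (SD, n = 5) of these counts in shDRP1 and 64.6% ± 2.14 (SD, n = 6) in shRandom libraries. Within the shDRP1 group, replicate 2 was the highest library for Acly, Scd2, Elovl6 and Fads1 and the lowest for Elovl1 and Fads2, so no library was high throughout. Within the shRandom group, replicate 4 was the highest library for 6 of the 10 members and the lowest for Fads1.

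**Figure D3:**
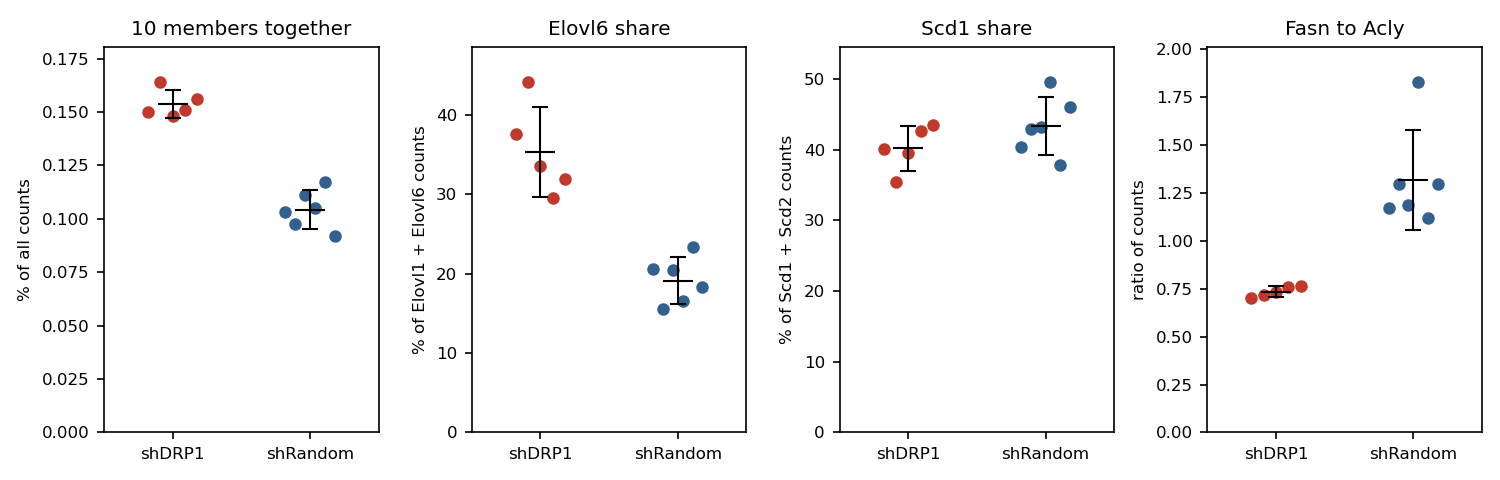
Shares and ratios of raw counts per library (vertical axes starting at 0, percent or ratio as labelled), with shDRP1 (n = 5) left of shRandom (n = 6) and the mean with SD in black. The summed share of the members, the share of Elovl6 and the ratio of Fasn to Acly separate the groups, while the share of Scd1 in both Δ9 desaturases overlaps.

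The promoter sequences of Elovl6 and Acly, the members with the largest rise, and of Fasn are shown because SREBP factors, NF-Y and Sp1 are known to act on promoters of this pathway. Each runs from 250 bases before to 50 bases after the start that RefSeq gives, on the strand of the gene (GRCm38.p6), and RefSeq entries were found for 7 of the 10 members. For Acly and Fasn that start is the GENCODE start given above, while for Elovl6 it lies a short way downstream of it. Capitals mark matches on either strand to CANNTG (E-box), CCAAT (the NF-Y box), GGGCGG (the GC box) and TCACNCCAC (a sterol regulatory element core), and overlapping matches run together. The Elovl6 window is chr3:129532136-129532435 on the plus strand. The Acly window is chr11:100527951-100528250 and the Fasn window chr11:120824498-120824797, both on the minus strand.
Elovl6: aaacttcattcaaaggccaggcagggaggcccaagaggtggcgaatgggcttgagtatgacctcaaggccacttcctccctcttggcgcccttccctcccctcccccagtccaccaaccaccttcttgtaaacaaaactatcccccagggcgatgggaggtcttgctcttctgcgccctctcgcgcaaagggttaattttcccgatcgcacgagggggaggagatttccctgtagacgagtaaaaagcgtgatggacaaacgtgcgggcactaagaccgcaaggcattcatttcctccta
Acly: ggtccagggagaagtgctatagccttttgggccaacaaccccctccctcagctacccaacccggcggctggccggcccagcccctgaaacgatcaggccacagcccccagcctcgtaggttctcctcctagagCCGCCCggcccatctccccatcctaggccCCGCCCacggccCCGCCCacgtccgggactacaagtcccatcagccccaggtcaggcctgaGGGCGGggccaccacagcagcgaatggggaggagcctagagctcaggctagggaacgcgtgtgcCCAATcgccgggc
Fasn: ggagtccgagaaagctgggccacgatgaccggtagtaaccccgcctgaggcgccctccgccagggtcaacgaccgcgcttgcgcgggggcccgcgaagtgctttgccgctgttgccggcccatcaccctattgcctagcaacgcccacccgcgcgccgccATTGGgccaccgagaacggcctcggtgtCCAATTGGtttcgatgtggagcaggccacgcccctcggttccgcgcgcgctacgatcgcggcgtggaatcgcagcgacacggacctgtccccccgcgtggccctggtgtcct

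The Fasn window held 3 CCAAT boxes, which start 90, 62 and 59 bases before the start of the gene on the strand shown, and 1 E-box at 61, which overlaps the last 2 of them. The Acly window held 4 GC boxes before the start and 1 CCAAT box after it, and the Elovl6 window held none of the motifs. Among 32851 promoter windows of this length, 72.3% held an E-box, 37.4% a CCAAT box, 35.7% a GC box and 1.24% the sterol element core. The 8 windows of the members come from 7 genes, as Elovl1 has more than 1. Those of Acaca and Acacb begin at 84195188 on chromosome 11 and 114165268 on chromosome 5, inside the genes as GENCODE annotates them. Of the 8 windows, 5, 4, 4 and 0 held an E-box, a CCAAT box, a GC box and the sterol element core, in that order. These matches describe letters in the windows and no binding was measured.

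Genes listed under the supply of acetyl-CoA and reducing power also rose in the main. Of 11 tested, 7 were higher and 2 lower, with a median log2 fold change of 0.97. The 7 include Acat2, which feeds sterol synthesis and is not a supplier of this pathway. For this list and those below, the shares over all tested genes were 33.9% higher and 33.3% lower. The citrate carrier Slc25a1, which exports citrate from mitochondria, had 81.3, 79.0, 93.0, 89.1 and 96.5 CPM in shDRP1 replicates 1 to 5 and 33.5 to 39.8 CPM in shRandom libraries, a rise of 1.29 on the log2 scale (adjusted p = 9.4e-10, edgeR). The groups stood far apart, as they did for malic enzyme (Me1), a source of NADPH, with 89.0 ± 8.92 CPM (SD, n = 5) in shDRP1 and 40.8 ± 5.33 CPM (SD, n = 6) in shRandom libraries. The pentose phosphate pathway was split. G6pdx, its first enzyme, rose by 0.97 and transketolase (Tkt) by 1.65 on the log2 scale (adjusted p = 3.9e-08 and 3.0e-09, edgeR). The lactonase Pgls and transaldolase (Taldo1) were lower, with log2 fold changes of -0.34 and -0.22 (adjusted p = 0.0026 and 0.0012), and the dehydrogenase Pgd did not pass (0.13, adjusted p = 0.07). The acetyl-CoA synthetase Acss2 rose by 0.45 (adjusted p = 0.0017) and the cytosolic thiolase Acat2, which feeds sterol synthesis, by 1.59 (adjusted p = 4.7e-09).

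Other elongases and desaturases moved both ways. Of 15 tested, 8 were higher and 4 lower, with a median of 0.21. Elovl5, the elongase of polyunsaturated chains, ran from 121.6 to 189.9 CPM in shDRP1 and from 65.5 to 118.9 CPM in shRandom libraries, a log2 fold change of 0.83 (adjusted p = 1.6e-04, edgeR). Elovl4 rose by 1.62 and the dehydratase Hacd4 by 0.82 (adjusted p = 8.9e-09 and 9.9e-09, edgeR). Elovl7 was at 12.5 ± 0.694 CPM (SD, n = 5) in shDRP1 and 0.766 ± 0.168 CPM (SD, n = 6) in shRandom libraries. Its log2 fold change was 4.02 (adjusted p = 2.8e-12, edgeR), resting on 83 raw counts in the shRandom libraries together. Of the shared steps of the elongation cycle, the ketoreductase Hsd17b12 had a log2 fold change of 0.09 (adjusted p = 0.24). The last step, the enoyl reductase Tecr, fell to 229.0 ± 19.8 CPM (SD, n = 5) in shDRP1, against 671.9 ± 52.4 CPM (SD, n = 6) in shRandom libraries (log2 fold change -1.55, adjusted p = 1.3e-10, edgeR). Tecr lies on chromosome 8 from 83571698 to 83607971, where 25 of the 31 other tested genes within 1 Mb were lower and 1 was higher, with a median of -1.18. Also lower were Cyb5r3, which passes electrons to the desaturases, with a log2 fold change of -0.69, and Degs1, the ceramide desaturase, with -0.28 (adjusted p = 1.3e-08 and 0.0012, edgeR). Unlike Fads1 and Fads2, Fads3 was lower, at 126.6 ± 13.7 CPM (SD, n = 5) in shDRP1 and 207.3 ± 31.7 CPM (SD, n = 6) in shRandom libraries. Its log2 fold change was -0.71 (adjusted p = 3.1e-05, edgeR). The cytochrome b5 genes of this list were both higher, Cyb5a by 0.95 and Cyb5b by 0.35 on the log2 scale (adjusted p = 1.8e-06 and 2.8e-05, edgeR).

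**Figure D4:**
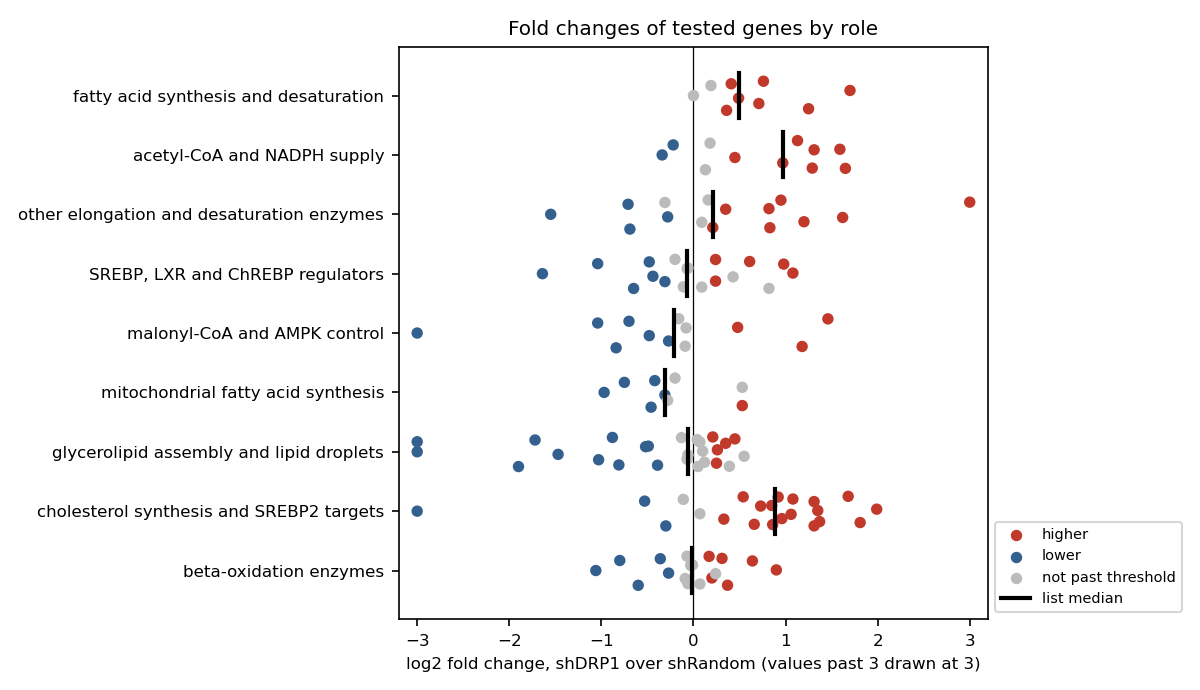
Log2 fold change of shDRP1 over shRandom (horizontal axis, values past 3 in either direction drawn at 3) for each tested gene, in rows by role. Red points were called higher, blue lower and grey neither by edgeR at an adjusted p of 0.05, and black bars are list medians, with 0.49 for the members, 0.97 for acetyl-CoA and NADPH supply, 0.89 for cholesterol synthesis and -0.02 for beta-oxidation.

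The transcripts of the SREBP factors themselves did not pass the test. Srebf1, the factor most tied to fatty acid genes, had 4.0, 9.59, 6.49, 4.99 and 3.72 CPM in shDRP1 replicates 1 to 5 and 2.82 to 6.36 CPM in shRandom libraries (fitted log2 difference 0.43, adjusted p = 0.18, edgeR). Srebf2 was at 118.6 ± 5.69 CPM (SD, n = 5) in shDRP1 and 124.6 ± 8.79 CPM (SD, n = 6) in shRandom libraries (adjusted p = 0.31). Both groups of values overlapped. Insig1, which holds SREBP in the endoplasmic reticulum and is itself an SREBP target, had 18.9, 22.3, 13.2, 18.2 and 22.6 CPM in shDRP1 replicates 1 to 5 and 7.26 to 10.7 CPM in shRandom libraries, a log2 fold change of 1.08 (adjusted p = 1.0e-05, edgeR). The site-1 protease Mbtps1 rose by 0.61 (adjusted p = 1.3e-07) and the SREBP escort Scap by 0.24 (adjusted p = 0.044).

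Among the other regulators of the pathway, several were lower. Mid1ip1, which promotes the assembly of acetyl-CoA carboxylase into its active polymer, fell to 35.9 ± 7.14 CPM (SD, n = 5) in shDRP1, against 73.6 ± 14.1 CPM (SD, n = 6) in shRandom libraries (log2 fold change -1.04, adjusted p = 2.9e-05, edgeR). The liver X receptor Nr1h3 was at 0.365 ± 0.252 CPM (SD, n = 5) in shDRP1 and 1.22 ± 0.242 CPM (SD, n = 6) in shRandom libraries (adjusted p = 5.9e-04, edgeR). This low level rests on 35 raw counts in the shDRP1 and 135 in the shRandom libraries together. Its sister Nr1h2 had a log2 fold change of 0.09 (adjusted p = 0.31, edgeR), and that of the partner receptor Rxrb was -0.48 (adjusted p = 4.6e-05, edgeR). Of 18 regulators tested 5 were higher and 6 lower, with a median of -0.07. Mlxipl, Thrsp and Pnpla3 were not analysed here.

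Genes of AMPK, the kinase that inhibits acetyl-CoA carboxylase, and of malonyl-CoA breakdown moved both ways, with 3 higher and 6 lower of 12 (median -0.21). The muscle subunit Prkag3 fell to 0.634 ± 0.229 CPM (SD, n = 5) in shDRP1, against 53.0 ± 6.91 CPM (SD, n = 6) in shRandom libraries, and Prkag2 rose by 1.46 on the log2 scale (adjusted p = 3.3e-13 and 1.1e-08, edgeR). The catalytic subunit Prkaa1 had a log2 fold change of -0.09 (adjusted p = 0.28) and the muscle form Prkaa2 of -0.84 (adjusted p = 0.0028). On the same log2 scale the subunit Prkab2 was at -0.70, the AMPK kinase Stk11 at -0.48, the phosphatase Ppm1a at -1.04 and malonyl-CoA decarboxylase (Mlycd) at -0.27 (adjusted p = 5.9e-07, 2.0e-06, 4.2e-10 and 0.019, edgeR).

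In the separate fatty acid synthesis of mitochondria 1 gene was higher, 5 were lower and 3 did not pass, of 9 tested (median -0.31), where 33.3% of all tested genes were lower. The malonyl transferase Mcat fell to 14.2 ± 1.27 CPM (SD, n = 5) in shDRP1, against 27.8 ± 1.86 CPM (SD, n = 6) in shRandom libraries (adjusted p = 8.4e-08, edgeR). As log2 fold changes, the reductase subunit Cbr4 was at -0.75 and lipoic acid synthase (Lias) at -0.46, while the enoyl reductase Mecr rose by 0.53 (adjusted p = 2.4e-06, 5.9e-06 and 1.6e-04, edgeR).

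Of 26 tested genes of glycerolipid assembly and lipid droplets, 5 were higher, 11 lower and 10 not past the threshold, with a median of -0.06. Over all tested genes 33.9% were higher and 33.3% lower. Monoacylglycerol lipase (Mgll) fell to 0.158 ± 0.0736 CPM (SD, n = 5) in shDRP1, against 46.7 ± 6.57 CPM (SD, n = 6) in shRandom libraries, a difference resting on 14 raw counts in the shDRP1 libraries together. As log2 fold changes, the lipin Lpin3 was at -1.72, the acyl-CoA synthetase Acsl3 at -0.88 and the triglyceride lipase Pnpla2 at -1.03 (adjusted p = 3.3e-09, 3.2e-06 and 2.7e-07, edgeR). Cholesterol synthesis and SREBP2 target genes were higher in 17 of 22 cases and lower in 3 (median 0.89), with log2 fold changes of 1.99 for the sterol reductase Hsd17b7, 1.35 for mevalonate kinase (Mvk), 1.06 for the sterol oxidase Msmo1 and 0.92 for squalene epoxidase (Sqle). Beta-oxidation enzymes were higher in 6 and lower in 5 of 18 cases (median -0.02), with log2 fold changes of 0.64 for Cpt1a, the malonyl-CoA-sensitive carnitine transferase, -1.06 for the dehydrogenase Acadl, -0.80 for the thiolase Acaa2 and -0.60 for the dehydrogenase Acadvl. The lists were compared by their counts and medians and no difference between lists was tested.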

How the data were processed

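RNA was measured in 11 QuantSeq libraries, grouped by the hairpin in their titles into shDRP1 (n = 5) and shRandom (n = 6). Per the labels' protocols, reads start near the poly(A) tail; the series text names BlueBee software for alignment. DESeq2 version 1.22.2 and the builds GRCm38 and mm10 appear in the submitters' processing notes; the aligner and the strand setting stay unnamed in these sources. The authors deposited raw counts per gene, not normalized, and a second table with a signal in which each library's counts were divided by a constant, a relation found by comparing both tables, and which was otherwise not used.

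Genes were filtered with filterByExpr, scaled by TMM and tested with edgeR version 4.0.16 (quasi-likelihood, robust, group as the only term; R version 4.3.3), with Benjamini-Hochberg adjustment over 13025 genes and a threshold of 0.05. CPM values use TMM-scaled library sizes, standard errors are the log2 fold change over the square root of F, and 95% intervals use edgeR's total degrees of freedom. Identifiers were matched to symbols for 15080 genes and not for 33. The steps were tested on simulated data. Alternatives were other scalings, filters and thresholds, DESeq2 version 1.42.0, limma-voom (limma version 3.58.1), the replicate number as a block, thinned counts and leaving out libraries.

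The members, lists, tests and alternatives were chosen with earlier results of these data known. Named are the members, Dnm1l, and listed regulators and enzymes whatever their values. Also named are the 4 genes of each list with the smallest adjusted p whose mean over all libraries reached 10 CPM. Cdc20, Myod1, Fabp4, Adrb3, Plin4, Pgls, Taldo1, Pgd, Cyb5a, Cyb5b, Fads3 and Elovl7 were named after their values were seen. Replicate libraries of a group were compared for duplicates, and no pair agreed within sampling noise. The raw counts behind low genes give counting error only, since PCR reads without molecular identifiers are not independent molecules.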

Additional observations from a re-analysis of the deposited data

Results flagged for a closer look

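Of 126 groups of libraries examined for 63 named genes, 8 held a library far from the others, and chance gives about 1 in 20. Among the members this was Fasn in shRandom replicate 4, at 97.1 CPM, where the next library had 68.0 CPM and the lowest 63.6 CPM. In shRandom libraries the others were Degs1 in replicate 1 at 178.7 CPM, Cyb5r3 in replicate 6 at 605.8 CPM, Srebf2 in replicate 5 at 142.4 CPM and Acaa2 in replicate 4 at 159.6 CPM, each the highest. In shDRP1 libraries they were Prkaa2 in replicate 4 at 0.801 CPM and Mecr in replicate 2 at 23.8 CPM, both the lowest, and Car3 in replicate 1 at 83.2 CPM, the highest.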

How the results depend on the processing

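The count of members called higher was 7 or 8 and that of members called lower 0 under every setting run, and the 7 called members kept their direction and their call, except that Fads2 was not tested with a filter on a mean of 10 CPM. With that filter, which tested 8328 genes, 2900 genes were higher and 2838 lower, against 4413 and 4332 before it. Scd1 passed with that filter (adjusted p = 0.039), with upper-quartile factors (0.0099) and with library totals alone (0.0045), which moved the median log2 fold change of all genes to 0.13, against 0.03 with TMM. Over all genes 5110 were higher and 3817 lower with upper-quartile factors, and 5207 and 3751 with library totals. Acaca, never past the threshold, changed sign around 0: its log2 fold change was 0.083 with upper-quartile factors, 0.099 with library totals, 0.021 with the filter, 0.01 with limma-voom, 0.02 with the replicate block, 0.001 with thinned counts, and -0.038 to 0.081 without each library in turn. With the replicate block 3934 genes were higher and 4003 lower and 7 members higher. Same-numbered libraries correlated at -0.176 to 0.357 in their deviations from the group means, and 1 of 5 shDRP1 libraries correlated best with its own number. So few numbers cannot decide whether same-numbered libraries were paired. The cause of the changes between settings was not tested. Depth limits Acacb, with 20 and 39 counts, and Fads2.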
